A study of Rattus norvegicus with 20 samples.

Results

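Plaque-associated microglia genes are transcripts known to be raised in microglia, the resident immune cells of the brain, that gather around amyloid plaques. The members were 10 genes chosen by symbol, namely Trem2, Tyrobp, Apoe, Cst7, Lpl, Cd9, Cd68, Itgax, Spp1 and Axl. Of these, 9 had a row among the 17168 genes of the tables, and Itgax was not analysed here. Hippocampal mRNA was sequenced from 20 female rats at 4 months of age, each rat giving a library of its own. The genotype comparison held 5 wild-type rats that were not treated (WTNT) and 5 TgF344-AD rats that were not treated (TGNT). The treatment comparison held 4 other TGNT rats and 6 treated TgF344-AD rats (TGTR), whose chow delivered diazoxide (DZ, 10 mg/kg per day) with dibenzoylmethane (DIB, 200 mg/kg per day) from day 52 of life. All untreated rats ate plain rodent chow, and treated wild-type rats were not analysed here. TgF344-AD rats are Fischer rats with human transgenes, the Swedish form of the amyloid precursor protein (APPsw) and presenilin-1 lacking exon 9 (PS1-∆E9). Both are driven by the prion promoter and so are not limited to microglia. The labels give the left hippocampus as the tissue, whereas the methods of the study name the right.

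The receptor TREM2 sits on the surface of microglia, binds lipids and lipoproteins, and passes its signal on through the adaptor TYROBP. Around plaques, microglia are known to lower their homeostatic genes and to raise genes of lipid handling, of lysosomes and of adhesion. The other members belong to this programme, of which a part depends on TREM2. Several members are also made by other brain cells, such as Apoe by astrocytes and Cd9 by oligodendrocytes, and whole hippocampus was measured here. Fewer cells of a type and less RNA per cell therefore cannot be told apart in any value given here.

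Estimated counts per rat totalled 5848458 to 9926088 in the WTNT group and 6610498 to 8117561 in the TGNT group of the genotype comparison. In the treatment comparison the totals were 11151973 to 13481985 for TGNT and 9215039 to 14175594 for TGTR rats. Levels are given as RPM, meaning reads-per-million values, scaled by the authors with TMM factors within each table. One read equalled 0.102 to 0.171 RPM where genotypes were compared, and 0.0706 to 0.101 RPM where treatment was, so members under about 1 RPM rested on few reads. The tables were normalized separately, and tests were made only within a table. The RNA 7SL took 1.77 to 2.26% of the counts in WTNT and 2.02 to 2.39% in TGNT rats of the genotype comparison. In the treatment comparison it took 5.11 to 6.36% in TGNT and 3.38 to 5.17% in TGTR rats, of which 5 of 6 lay below every TGNT rat, and its part in the differences with treatment was not tested. Among the treated rats, TGTR replicate 5 stood apart with 3960.2 RPM of choroid plexus genes, and TGTR replicate 4 with 1290.4 RPM of blood cell genes, as described further on. App, the row that checks the transgene, differed between the genotypes by 1.00 in log2 fold change (quasi-likelihood test of edgeR, adjusted p = 2.45e-07, standard error 0.0555).

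Upstream sequences are shown for Trem2, the receptor, and for Cd68, the member with the lowest unadjusted p between genotypes. They are also shown for Spp1, the member whose treated and untreated rats did not overlap. RefSeq promoter entries (GRCr8) matched 8 of the 10 members, and none of the lines below comes from the rats themselves. Each is the 250 bases before the annotated start, 5′ to 3′ on the strand of the gene. Trem2 lies on the minus strand at chr9:20151780-20152029, Cd68 on the minus strand at chr10:54882442-54882691 and Spp1 on the minus strand at chr14:5619805-5620054. Capitals mark matches on either strand to GAGGAA, the core bound by PU.1 and other ETS factors, to TGANTCA, the AP-1 motif, or to CACGTG, an E-box.
Trem2: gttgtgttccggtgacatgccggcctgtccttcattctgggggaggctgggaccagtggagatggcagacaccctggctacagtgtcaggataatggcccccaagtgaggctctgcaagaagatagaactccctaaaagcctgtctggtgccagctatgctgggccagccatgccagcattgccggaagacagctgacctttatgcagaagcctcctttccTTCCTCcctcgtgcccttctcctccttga
Cd68: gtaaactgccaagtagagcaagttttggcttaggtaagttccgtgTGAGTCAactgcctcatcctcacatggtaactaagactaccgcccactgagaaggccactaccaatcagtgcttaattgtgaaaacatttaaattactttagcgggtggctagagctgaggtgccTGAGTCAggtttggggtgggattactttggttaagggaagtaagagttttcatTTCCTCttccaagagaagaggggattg
Spp1: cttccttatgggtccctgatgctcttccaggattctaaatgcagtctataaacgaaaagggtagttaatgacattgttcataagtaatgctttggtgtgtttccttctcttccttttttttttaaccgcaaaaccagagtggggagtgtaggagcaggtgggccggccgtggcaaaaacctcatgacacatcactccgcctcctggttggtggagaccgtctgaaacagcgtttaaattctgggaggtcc
The Trem2 window held a single match to GAGGAA, read on the other strand, 24 to 29 bases before the start. In the Cd68 window a match to GAGGAA lay 22 to 27 bases before the start, and TGANTCA matched at 74 to 80 and at 199 to 205 bases before it. The Spp1 window held none of these letters. Among 33469 windows of the same length, 23.3% held GAGGAA, 6.34% TGANTCA and 5.59% CACGTG, and no match overlapped another in the windows shown. Among the members, GAGGAA was found before Axl and Cd9 as well, TGANTCA before Itgax, and CACGTG before none. Of the Apoe entries 1 to 3, only entry 2 held GAGGAA. A match describes the letters only.

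The genotype comparison asked which hippocampal transcripts differed in transgenic rats at an early age. The paper calls this age pre-pathology and reports no amyloid plaques then in rats of either genotype, treated or untreated. No value given here therefore describes microglia gathered around plaques. A call required a fold change of 1.5 or more and an adjusted p under 0.05, and none of the 9 members passed it in TGNT against WTNT rats. Over all 17168 genes 0.0116% passed by the quasi-likelihood test of edgeR, App being one of these. Before adjustment 1 member, Cd68, was higher with p under 0.05 and 0 were lower, where the shares of all genes were 1.72% and 1.5%. DESeq2, the exact test of edgeR and limma-trend also called 0 members, each with 1 member at an unadjusted p under 0.05. In 0 of the 9 members did the groups separate in RPM, where 0.314% of the 14634 genes with reads lay higher and 0.287% lower in every TGNT rat than in every WTNT rat.

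**Figure D1:**
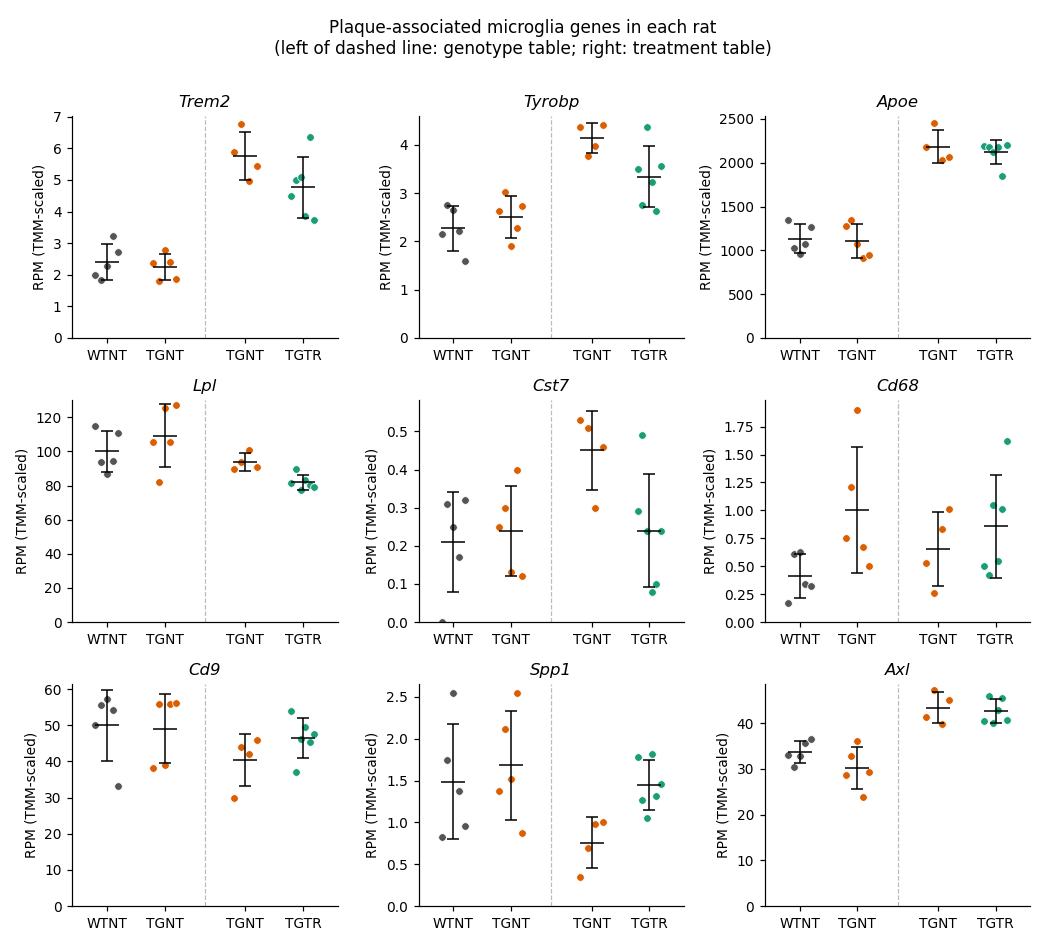
Level of each of the 9 members in each rat, in RPM, with the genotype table to the left and the treatment table to the right of the dashed line; points are rats, and bars show the mean and SD of a group (WTNT n = 5, TGNT n = 5 and 4, TGTR n = 6). In Spp1 all TGTR rats lie above all TGNT rats of the same table, and no test was made across the dashed line because the tables were normalized separately.

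Trem2, the receptor, was at 1.99, 1.84, 2.28, 3.24 and 2.71 RPM in the WTNT rats and at 2.37, 1.81, 2.79, 2.40 and 1.87 RPM in the TGNT rats. The groups overlapped over most of their range, on 12 to 22 counts per rat. Its log2 fold change was -0.07 (95% confidence interval -0.57 to 0.43; -0.17 to 0.04 over leaving out each rat). Tyrobp, the adaptor that carries the signal of TREM2 into the cell, averaged 2.28 ± 0.466 RPM (SD, n = 5) in wild-type rats, against 2.51 ± 0.433 RPM (SD, n = 5) for the transgenic group. Its groups overlapped too, and its log2 fold change was 0.12 (95% confidence interval -0.36 to 0.59), with 0.02 to 0.21 over leaving out each rat. Both intervals span 0 and end near the 1.5-fold threshold on one side, which is what 10 to 27 counts per rat allowed.

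Of the lipid genes, Apoe encodes the main apolipoprotein of the brain, a ligand of TREM2. It was at 962.6 to 1342.7 RPM in WTNT rats and at 908.6 to 1341.2 RPM in TGNT rats, nearly the same span. The log2 fold change was -0.03 (95% confidence interval -0.27 to 0.22; -0.12 to 0.04 over leaving out each rat). Lpl, the lipase that frees fatty acids from lipoproteins, ranged from 86.8 to 114.8 RPM in WTNT rats, while the TGNT group spanned 82.2 to 127.0 RPM. Both the lowest and the highest value belonged to TGNT rats, and the log2 fold change was 0.13 (95% confidence interval -0.10 to 0.37), with 0.06 to 0.21 over leaving out each rat and a lowest unadjusted p of 0.0436 by edgeR.

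Cd68, a glycoprotein of lysosomes and the usual marker of phagocytic microglia, was at 0.17, 0.61, 0.63, 0.34 and 0.32 RPM in WTNT rats, from 1 to 6 counts. In TGNT rats it was at 0.75, 1.21, 1.90, 0.67 and 0.50 RPM, from 4 to 15 counts. Of the TGNT rats 4 lay above all WTNT rats, while TGNT replicate 5 lay below WTNT replicates 2 and 3. Means were 0.415 ± 0.203 RPM (SD, n = 5) for WTNT and 1.00 ± 0.566 RPM (SD, n = 5) for TGNT. The quasi-likelihood test gave a log2 fold change of 1.16 (standard error 0.474, 95% confidence interval 0.15 to 2.17), an unadjusted p of 0.0271 and an adjusted p of 1. The exact two-sided permutation test of RPM gave p = 0.0397, and 0.171 after Benjamini-Hochberg adjustment over the 18 such tests, so the difference failed the correction. For 5 rats against 5 the lowest p of this permutation test is 0.00794, with which a single member could not have passed that correction by itself. Over the fits that each left out a rat the log2 fold change lay between 0.78 and 1.36, with unadjusted p from 0.014 to 0.118 by edgeR, and without WTNT replicate 1, 4 or 5 or TGNT replicate 2 or 3 that p was above 0.05. By limma-trend it was 0.47 on RPM plus 1 and 1.06 on RPM plus 0.1.

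Cst7, which encodes cystatin F, an inhibitor of lysosomal cathepsins, was near the detection limit. WTNT rats had 0 to 3 counts and TGNT rats 1 to 3 counts, and no difference was detectable at this depth.

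Cd9, a tetraspanin of the cell surface, was at 50, 55.6, 57.2, 54.1 and 33.1 RPM in WTNT rats and at 38.2, 55.8, 39, 55.9 and 56.2 RPM in TGNT rats. WTNT replicate 5 and TGNT replicates 1 and 3 were low, and the remaining rats of both groups lay close together. Between the groups the log2 fold change was -0.03 (95% confidence interval -0.34 to 0.29; -0.14 to 0.05 over leaving out each rat). Spp1, which encodes the secreted phosphoprotein osteopontin, spanned 0.83 to 2.54 RPM in WTNT rats, with 0.87 to 2.54 RPM in the TGNT group. Here the groups covered almost the same range, on 5 to 20 counts. The log2 fold change was 0.12 (95% confidence interval -0.63 to 0.87; -0.08 to 0.39 over leaving out each rat).

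Axl, a receptor tyrosine kinase that recognises dying cells through the bridging ligand GAS6, was at 30.3 to 36.5 RPM in WTNT rats, whereas the TGNT group reached from 23.8 to 36 RPM. Although 3 TGNT rats lay below all WTNT rats, the other 2 lay within their range, and the log2 fold change was -0.15 (95% confidence interval -0.37 to 0.07). Over leaving out each rat it was -0.23 to -0.09, with a lowest unadjusted p of 0.0373 by edgeR. Over all 9 members the median log2 fold change was 0.10, with 5 higher and 4 lower, a median that falls on Cst7 and its 0 to 3 counts. Over the 7 members with a mean of at least 10 counts it was -0.03, with 3 higher and 4 lower. Over all genes with such counts it was 0.01, with 52.4% of them higher.

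**Figure D2:**
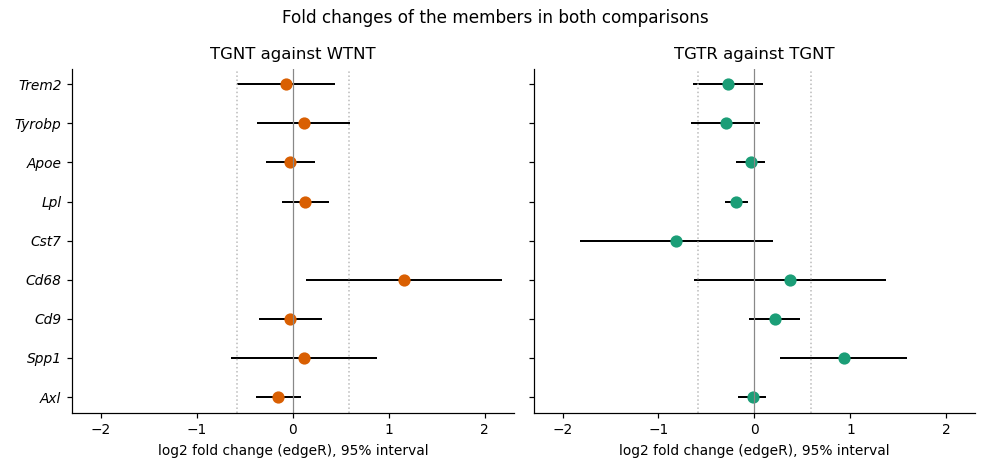
Log2 fold change of each member from the fit of edgeR, with points for the estimate, lines for its 95% confidence interval, the TGNT against WTNT rats to the left and the TGTR against TGNT rats to the right; dotted lines mark 1.5-fold. Cd68 between genotypes (0.15 to 2.17) and Spp1 with treatment (0.28 to 1.58) have intervals above 0, Lpl with treatment one below it (-0.30 to -0.08), and Cst7 is not drawn between genotypes because of its 0 to 3 counts.

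Around the members stood other genes of the same programme and of its pathway. Of 28 further genes known to be raised in plaque-associated microglia, 0 were called between genotypes and 0 had an unadjusted p under 0.05. The 22 of them with a mean of at least 10 counts had a median log2 fold change of 0.07 (0.036 to 0.11 over leaving out each rat), 17 higher and 5 lower. Examples are the cathepsin gene Ctsz, at 6.77 ± 1.11 RPM for WTNT against 8.15 ± 1.8 RPM for TGNT (SD, n = 5 each), and Grn, the gene of progranulin, with a log2 fold change of 0.15. Ankh, with the lowest unadjusted p of the list (0.114 by edgeR), had a log2 fold change of -0.09, and Hexa one of -0.13. Fth1, ferritin heavy chain, took the most RPM of the list and had a log2 fold change of -0.13.

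Genes of TREM2 signalling were 17 in the tables. They include kinases such as Syk and Lyn, the proteases Adam10 and Adam17 that shed its ectodomain, the transcription factor gene Spi1 and the related receptor genes Trem1, which had no reads in either table, and Treml1. Of these, 0 were called and 0 had an unadjusted p under 0.05 between genotypes, and the 12 with enough counts had a median log2 fold change of -0.09 (-0.12 to -0.00 over leaving out each rat). Syk, the first kinase to be recruited by TYROBP, had a log2 fold change of -0.13 (95% confidence interval -0.41 to 0.16). Binding partners and substrates of the members were a further 20 genes, among them the lipoprotein receptor Lrp1 and the osteopontin receptor Cd44. None of those 20 was called either, 0 had an unadjusted p under 0.05, and the median over 18 with enough counts was -0.03 (-0.052 to 0.01 over leaving out each rat). Icam1, a ligand of leukocyte integrins, had the lowest value of that list, a log2 fold change of -0.29 (95% confidence interval -0.77 to 0.19).

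Homeostatic microglia genes show that microglial transcripts were measured at this depth, with 20 of 20 at a mean of at least 10 counts. Their median log2 fold change between genotypes was 0.11 (down to 0.052 on leaving out a rat), with 17 higher and 3 lower and 0 called. Selplg, a surface ligand of microglia, was at 12.3 ± 1.21 RPM in WTNT and 14.9 ± 1.69 RPM in TGNT rats (SD, n = 5 each), a log2 fold change of 0.28 with an unadjusted p of 0.025 from the quasi-likelihood test. Mertk, a receptor kinase of the family of Axl, had a lower mean in TGNT rats, 30.7 ± 1.58 RPM against 36.8 ± 3.77 RPM (SD, n = 5 each), and its log2 fold change of -0.26 had an unadjusted p of 0.00591 in the quasi-likelihood test. Both had an adjusted p of 1 in the same fit. The cathepsin gene Ctss, with the most RPM in the list, had a log2 fold change of 0.05.

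**Figure D3:**
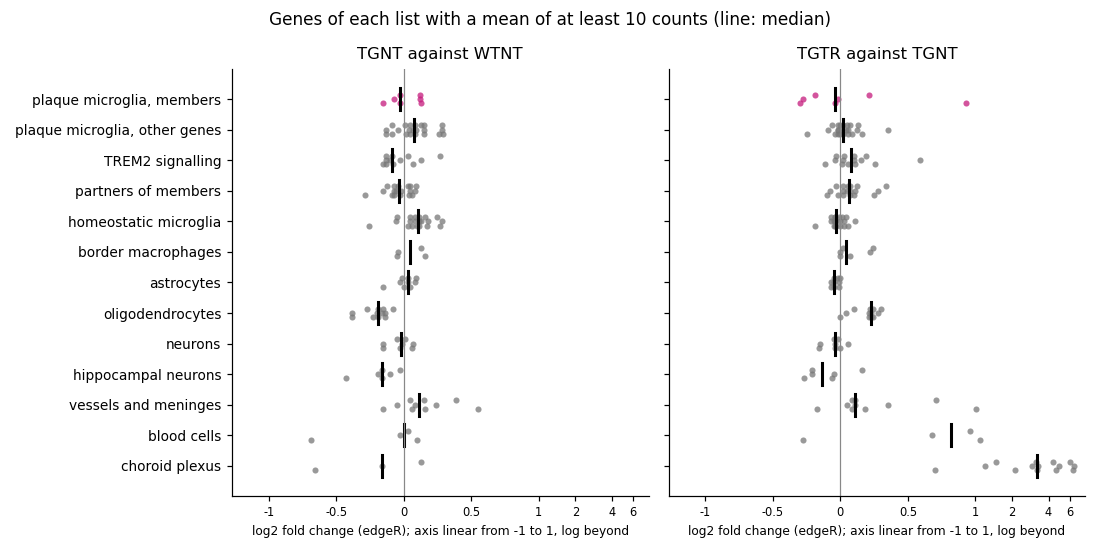
Log2 fold changes of the genes of each list with a mean of at least 10 counts in the table, between genotypes to the left and with treatment to the right; points are genes, black lines are medians, and the axis is linear from -1 to 1 and logarithmic beyond. The medians of the 7 members drawn are -0.03 and -0.04 (0.10 and -0.04 over all 9), and the choroid plexus genes stand apart on the right with a median of 3.23, which was -0.31 without TGTR rats 5 and 6.

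The treatment comparison asked how the combination of DZ and DIB altered transcripts of transgenic rats. No member passed the call between TGTR and TGNT rats, where 0% of all genes passed by the quasi-likelihood test of edgeR and 843 had an unadjusted p under 0.05. At that threshold 1 member was higher, Spp1, and 1 lower, Lpl, and the shares of all genes were 2.98% and 1.93%. DESeq2 called 3 genes and the exact test of edgeR 4 genes, 0 members among them, with 2 members at an unadjusted p under 0.05 in each. For limma-trend there were 0 genes called and 3 members under that p, Cst7 besides Lpl and Spp1. Groups did not overlap in 1 member that was higher, Spp1, and in 0 that were lower. Of the 14861 genes with reads, 0.686% lay higher and 0.639% lower in every TGTR rat than in every TGNT rat.

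Trem2 was at 5.87, 6.77, 4.96 and 5.43 RPM in the TGNT rats, and in TGTR rats its lowest value was 3.73, its median 4.75 and its highest 6.36 RPM. Of the TGTR rats 3 lay below all TGNT rats, and the other 3 within their range. Its log2 fold change of -0.28 had a standard error of 0.163, a 95% confidence interval from -0.63 to 0.08 and, by the quasi-likelihood test, an adjusted p of 0.99. It was -0.37 to -0.19 over leaving out each rat, with a lowest unadjusted p of 0.0256 by edgeR. Tyrobp was at 4.38, 3.77, 3.98 and 4.42 RPM in TGNT rats and at 2.63 RPM at the lowest, 3.37 RPM in the median and 4.36 RPM at the highest in TGTR rats. All TGTR rats but replicate 3 lay below all TGNT rats. Its log2 fold change was -0.30 (standard error 0.161, 95% confidence interval -0.65 to 0.05). Over leaving out each rat it was -0.39 to -0.25, with a lowest unadjusted p of 0.0261 by edgeR. The exact two-sided permutation test gave p = 0.0476, or 0.171 after adjustment over the 18 tests. The receptor and its adaptor thus had fold changes of like size and direction, and neither passed a corrected threshold.

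Apoe was at 2034.1 to 2455.1 RPM in TGNT and at 1846.0 to 2203.1 RPM in TGTR rats, overlapping except for TGTR replicate 5, which was the lowest. Its log2 fold change was -0.04, in a narrow 95% confidence interval from -0.18 to 0.10 on at least 18284 counts per rat. Lpl was at 89.4, 93.8, 100.8 and 90.9 RPM in the TGNT rats, and its lowest value in TGTR rats was 77.6, its median 80.7 and its highest 89.6 RPM. All TGTR rats but replicate 2 lay below all TGNT rats, and replicate 2 overlapped only with the lowest of them. The mean was 81.8 ± 4.3 RPM (SD, n = 6) against 93.7 ± 5.04 RPM (SD, n = 4), and the log2 fold change -0.19 (standard error 0.0512, 95% confidence interval -0.30 to -0.08). By the quasi-likelihood test the unadjusted p was 0.00236 and the adjusted p 0.913. The exact two-sided permutation test gave p = 0.019, or 0.171 after adjustment over the 18 tests. The whole interval lay inside the 1.5-fold threshold.

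Cst7 had 4 to 6 counts in untreated and 1 to 7 counts in treated rats, with means of 0.45 ± 0.104 RPM (SD, n = 4) and 0.241 ± 0.15 RPM (SD, n = 6). TGTR replicate 2 reached into the range of the TGNT rats, and the other TGTR rats lay below it. Its log2 fold change was -0.82, with a wide 95% confidence interval from -1.81 to 0.18, and the exact two-sided permutation p was 0.0381, or 0.171 after adjustment. Over leaving out each rat the log2 fold change was -1.16 to -0.64, with a lowest unadjusted p of 0.0265 by edgeR. On RPM plus 1, limma-trend gave -0.23 for Cst7, the smallest change over the alternative settings, which reached down to -0.85. Cd68 was at 0.26 to 1.01 RPM in TGNT and at 0.42 to 1.62 RPM in TGTR rats, overlapping for the most part. The fit gave 0.37 as its log2 fold change (95% confidence interval -0.62 to 1.36), with 0.08 to 0.63 over leaving out each rat and -0.07 without TGTR rats 5 and 6.

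Spp1 was at 0.35, 0.69, 0.98 and 1.01 RPM in TGNT rats, from 4 to 13 counts. In TGTR rats its lowest value was 1.05, its median 1.39 and its highest 1.82 RPM, from 13 to 25 counts. Every TGTR rat lay above every TGNT rat, with little room between the highest TGNT and the lowest TGTR rat. The mean was 1.45 ± 0.302 RPM (SD, n = 6) against 0.756 ± 0.308 RPM (SD, n = 4). By the quasi-likelihood test the log2 fold change was 0.93, with a standard error of 0.301, a 95% confidence interval from 0.28 to 1.58, an unadjusted p of 0.00867 and an adjusted p of 0.964. The exact two-sided permutation test gave p = 0.00952, or 0.171 after adjustment over the 18 tests. The unadjusted value is the lowest this test can give for 4 rats against 6. The difference failed this correction, which a single member could not have passed by itself at these group sizes. Its log2 fold change was 0.49 by limma-trend on RPM plus 1, the lowest value over the alternative settings, which reached up to 0.97.

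Cd9 was at 29.9, 43.9, 42.1 and 45.8 RPM in TGNT rats, and its lowest value in TGTR rats was 37, its median 46.8 and its highest 53.8 RPM. TGNT replicate 1 and TGTR replicate 2 were low, and the groups overlapped. The log2 fold change was 0.21 (95% confidence interval -0.05 to 0.46). Over leaving out each rat it was 0.09 to 0.27, with a lowest unadjusted p of 0.0291 by edgeR. Axl ranged from 39.8 to 47.3 RPM in TGNT and from 40.1 to 46 RPM in TGTR rats, which lay wholly inside the TGNT range. Axl had a log2 fold change of -0.02 (95% confidence interval -0.16 to 0.11), which turned to 0.02 with library size as the only scaling. The median over the 9 members, with 3 higher and 6 lower, was -0.04 (-0.075 to 0.02 over leaving out each rat), and over the 7 with a mean of at least 10 counts it was -0.04 too. Over all genes with such counts the median was 0.00, with 50.1% higher.

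Among the 28 other plaque-associated genes 0 were called with treatment, and 2 higher and 0 lower had an unadjusted p under 0.05. These were Hif1a and Cd52, the latter a surface glycoprotein of leukocytes with a mean of 1.9 counts, named after its values were seen. The median over the 23 with enough counts was 0.02 (-0.012 to 0.04 over leaving out each rat). Hif1a, a transcription factor of the response to low oxygen, was at 97.4 ± 3.42 RPM (SD, n = 4) without and at 106.4 ± 2.54 RPM (SD, n = 6) with treatment, and its groups did not overlap. That is a log2 fold change of 0.13 (standard error 0.0396), for which the quasi-likelihood test gave an adjusted p of 0.957. Tlr2, a receptor of innate immunity, had a log2 fold change of -0.25 (95% confidence interval -0.53 to 0.03), and Igf1, a growth factor, one of 0.35 (95% confidence interval -0.11 to 0.81).

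Of the 17 genes of TREM2 signalling 0 were called, 1 higher had an unadjusted p under 0.05, and the median over 14 was 0.08 (0.066 to 0.10 over leaving out each rat). That gene was Prkcd, a protein kinase C, at 8.79 ± 1.9 RPM (SD, n = 4) without and 13.3 ± 5.44 RPM (SD, n = 6) with treatment. Of the 20 partners of the members 0 were called and 3 higher had an unadjusted p under 0.05, with a median of 0.06 over 18 (0.009 to 0.08 over leaving out each rat). These were Tyro3, the remaining receptor kinase of the family of Axl, the osteopontin receptor Cd44 and Ptgfrn, a partner of tetraspanins. Tyro3 went from 173.4 ± 20.1 RPM (SD, n = 4) in untreated to 206.0 ± 5.68 RPM (SD, n = 6) in treated rats, with groups that did not overlap, and Cd44 from 12.2 ± 1.48 RPM (SD, n = 4) to 15.5 ± 1.19 RPM (SD, n = 6). Their log2 fold changes were 0.25 (adjusted p = 0.922 by edgeR) and 0.34 (adjusted p = 0.957 by edgeR). Without TGTR rats 5 and 6 the median of the partners was -0.01.

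Homeostatic microglia genes had a median log2 fold change of -0.03 with treatment (-0.044 to -0.00 over leaving out each rat), with 7 higher and 13 lower and 0 called. Mertk was again the gene with the lowest p of the list, at 41.6 ± 2.68 RPM (SD, n = 4) without and 36.4 ± 3.18 RPM (SD, n = 6) with treatment, a log2 fold change of -0.19 with an adjusted p of 0.964 by edgeR. Within the family of receptor kinases, the log2 fold changes with treatment were thus -0.02 for Axl, 0.25 for Tyro3 and -0.19 for Mertk. Between genotypes they were -0.15, -0.06 and -0.26, and none passed the adjusted threshold in either comparison.

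Genes of other cells were read beside the members, because whole tissue was measured. The 12 oligodendrocyte genes, which make myelin, summed to 7336.0, 9967.9, 11397.1, 8757.9 and 5007.9 RPM in WTNT rats and to 4711.2, 7626.8, 5872.1, 8446.1 and 8616.3 RPM in TGNT rats of the genotype table. The low rats, WTNT replicate 5 and TGNT replicates 1 and 3, were those in which Cd9 was low. Across the 10 rats, each value taken as its distance from the mean of its group, log2 Cd9 and the mean log2 level of these genes correlated with Pearson's r = 0.93 (exact permutation within groups, p = 0.000139, adjusted p = 0.0233 over 168 relations) and Spearman's rho = 0.95 (exact permutation p = 0.000556). Without the 2 rats farthest from the median of the oligodendrocyte level, r was 0.80.

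The treatment table, from other rats, gave a Pearson's r of 0.86 for the same relation (exact permutation p = 0.00359, adjusted p = 0.206 over 168 relations), a Spearman's rho of 0.71 (exact permutation p = 0.0321) and 0.60 without the 2 farthest rats. Spp1 correlated with the oligodendrocyte level with r = 0.79 (exact permutation p = 0.0146, adjusted p = 0.351) and rho = 0.73 (exact permutation p = 0.0264) in this table, and with r = 0.67 without the 2 farthest rats. In the genotype table that relation had r = 0.58 (exact permutation p = 0.108, adjusted p = 0.565) and rho = 0.58 (exact permutation p = 0.111). The 168 relations were those of 7 members with enough counts and 12 lists in both tables, and they were computed after the values of Cd9 had been seen. Only that of Cd9 with oligodendrocyte genes in the genotype table passed an adjusted p of 0.05.

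In the treatment table other lists also followed Cd9 and Spp1, with a lower r and a higher rho than the oligodendrocyte genes. Cd9 and the hippocampal neuron genes had r = 0.73 (exact permutation p = 0.0301, adjusted p = 0.401) and rho = 0.89 (exact permutation p = 0.0022), with r = 0.85 without the 2 farthest rats. For Spp1 and the same genes r was 0.72 (exact permutation p = 0.0238, adjusted p = 0.401), rho 0.81 (exact permutation p = 0.00897) and r without the 2 farthest rats 0.71. Spp1 and the blood cell genes had r = 0.61 (exact permutation p = 0.0287, adjusted p = 0.401), rho = 0.87 (exact permutation p = 0.00162) and r = 0.63 without the 2 farthest rats. The genotype table gave r of 0.12, -0.44 and -0.35 for these relations, with exact permutation p of 0.79, 0.258 and 0.354, adjusted p of 0.934, 0.774 and 0.774, and rho of -0.24, -0.26 and -0.35 (exact permutation p = 0.521, 0.494 and 0.361).

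**Figure D4:**
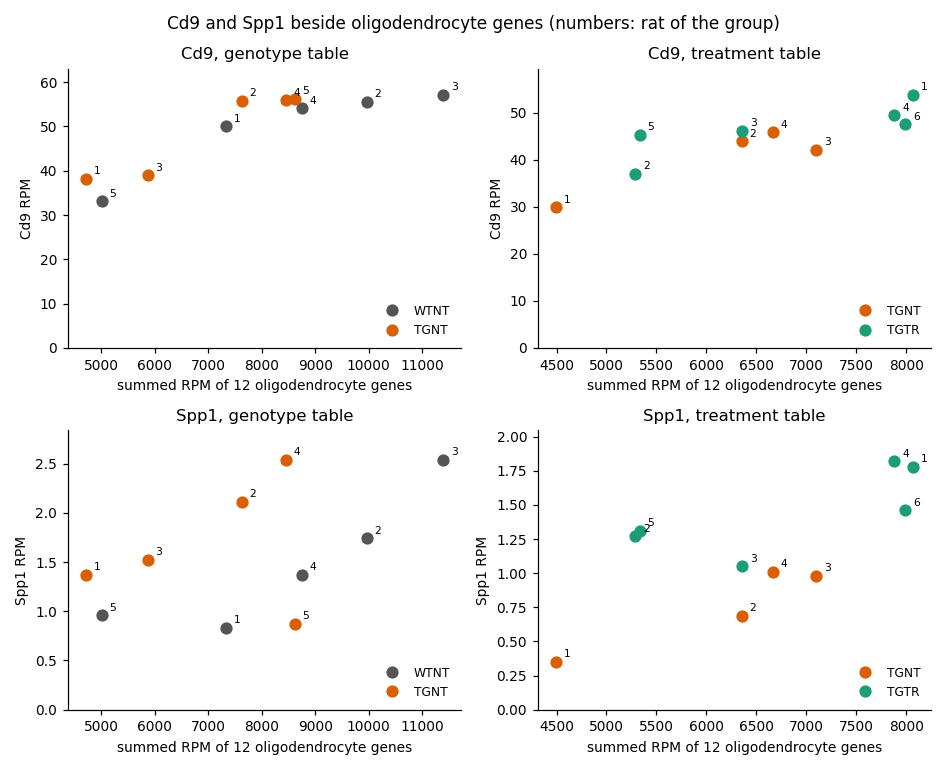
RPM of Cd9 (top) and Spp1 (bottom) in each rat against the summed RPM of 12 oligodendrocyte genes, for the genotype table (left) and the treatment table (right); points are rats, coloured by group and numbered by replicate. In the genotype table the 3 rats with the fewest oligodendrocyte reads had the least Cd9, while in the treatment table TGNT replicate 1 was lowest in all of these (4492.8 RPM, 29.9 RPM of Cd9, 0.35 RPM of Spp1) and TGTR replicate 5 joined few such reads, 5330.9 RPM, with 45.3 RPM of Cd9.

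With treatment, 12 of 12 oligodendrocyte genes had log2 fold changes above 0, with a median of 0.22 (0.12 to 0.29 over leaving out each rat), a highest value of 0.30 and 0 called. They summed to 4492.8, 6356.3, 7099.0 and 6667.6 RPM in TGNT rats and to 5289.0 to 8071.0 RPM in TGTR rats, with a median of 7120.3 RPM, and the groups overlapped. Mbp, myelin basic protein, took the most RPM of that list and had a log2 fold change of 0.04, while Ermn had the lowest p, with a log2 fold change of 0.30 (95% confidence interval 0.03 to 0.56). Their part in the values of Spp1 and Cd9 was not tested. Between genotypes 12 of 12 were below 0, with a median of -0.19 (-0.33 to -0.06 over leaving out each rat) and 0 called, and Mbp and Mobp, both at -0.38, had unadjusted p of 0.0402 and 0.0473 by edgeR.

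Apoe stood closest to the astrocytes in the treatment table, with r = 0.88 (exact permutation p = 0.00613, adjusted p = 0.206) and rho = 0.77 (exact permutation p = 0.0158), and r = 0.92 without the 2 farthest rats. In the genotype table the values were r = 0.51 (exact permutation p = 0.103, adjusted p = 0.565) and rho = 0.64 (exact permutation p = 0.0511). Other lists had an r of larger absolute size there, such as 0.62 for the neuronal genes and -0.63 for the choroid plexus genes. Apoe and the oligodendrocyte genes of that table had r = -0.71 (exact permutation p = 0.0315, adjusted p = 0.401) and rho = -0.72 (exact permutation p = 0.034), with r = -0.65 without the 2 farthest rats. The 9 astrocyte genes summed to 5342.3 RPM in TGTR replicate 5, the rat with the least Apoe, and to 5815.1 to 6538.1 RPM in the other TGTR rats. Their median log2 fold change was 0.03 between genotypes and -0.05 with treatment (-0.012 to 0.04 and -0.057 to 0.00 over leaving out each rat), and 0 were called in either. Slc1a2, a glutamate transporter, took the most RPM among them. The 8 neuronal genes had medians of -0.02 and -0.04 (-0.065 to 0.03 and -0.058 to -0.01 over leaving out each rat), led in RPM by Map2. Those of 6 markers of hippocampal neurons were -0.16 and -0.14 (-0.34 to -0.07 and -0.26 to -0.03 over leaving out each rat), led by Wfs1, again with 0 called.

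Choroid plexus genes set TGTR replicate 5 apart. The 14 genes of this list, which mark the tissue that makes cerebrospinal fluid, summed to 3960.2 RPM in that rat, to 319.0 RPM in TGTR replicate 6 and to 94.8 to 148.8 RPM in the other 8 rats of the table. Ttr had the most RPM, and 9 of the 14 had an unadjusted p under 0.05 by edgeR in the whole comparison. Their median of 3.23 was 0.50 without TGTR replicate 5 and -0.31 without TGTR rats 5 and 6. Replicate 5 also had the highest sums of 8 border macrophage genes, 42.9 RPM against 16.8 to 24 RPM in the others, and of 10 genes of vessels and meninges, 552.7 RPM against 269.7 to 326.0 RPM. In both lists the most abundant genes by RPM, Lyve1 and Flt1, were not at their highest, with 7.67 and 80.6 RPM in that rat. Blood cell genes summed to 1290.4 RPM in TGTR replicate 4, led by Hba1, against 168.4 to 259.8 RPM in the other rats.

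Without TGTR rats 5 and 6, a choice made after seeing these values, the log2 fold change of Spp1 was 0.95, that of Lpl -0.18, that of Trem2 -0.32 and that of Tyrobp -0.26, about as large as with them. Their adjusted p was 1 by the quasi-likelihood test, and 0 genes were called. Spp1 in TGTR replicate 4, the rat with the most blood cell reads, was 1.82 RPM, the highest value of the group, and without that rat the log2 fold change was 0.85, in a range from 0.70 to 1.09 over leaving out each rat. In the genotype table the choroid plexus genes summed to between 124.6 and 275.9 RPM in WTNT rats, and to between 103.0 and 210.7 RPM in the TGNT group. The medians over the genes with enough counts in that table were -0.16 for 3 choroid plexus genes, 0.05 for 4 of border macrophages, 0.12 for 10 of vessels and meninges and 0.00 for 4 of blood cells. Over leaving out each rat they ranged from -0.29 to 0.00, from -0.08 to 0.10, from 0.055 to 0.16 and from -0.12 to 0.07. Over all genes with reads the medians of choroid plexus and blood cells were -0.26 and -0.69 there. With treatment the medians of border macrophages, vessels and meninges, and blood cells were 0.05, 0.11 and 0.82, which over leaving out each rat ranged from -0.25 to 0.21, from 0.019 to 0.17 and from 0.11 to 1.06. In these lists 0 genes were called in either comparison. With treatment 2 vessel and meninges genes were higher and 0 lower at an unadjusted p under 0.05 by edgeR. These were Rgs5 and Flt1, with log2 fold changes of 0.35 and 0.18.

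**Figure D5:**
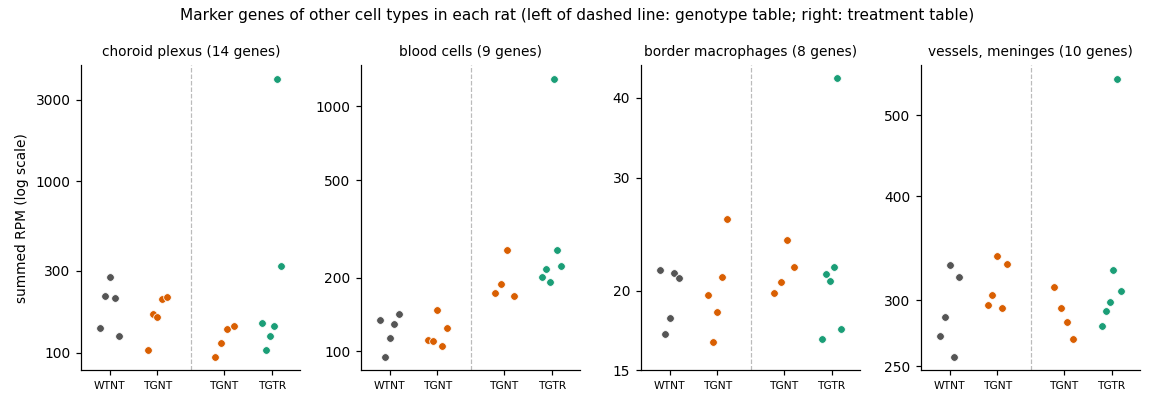
Summed RPM, on a logarithmic axis, of choroid plexus, blood cell, border macrophage and vessel and meninges genes in each rat, with the genotype table to the left and the treatment table to the right of each dashed line; points are rats. A single TGTR rat stands at 3960.2 RPM in choroid plexus genes, and another TGTR rat at 1290.4 RPM in blood cell genes.

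Likeness to Trem2 was measured across the 10 rats of a table as Pearson's r of log2(RPM + 1), each value minus the mean of its group, over genes averaging 10 counts or more. In the genotype table Pcdha1, Paox, F2rl1, Pcdha5 and Rnmtl1 were most alike, with r from 0.89 to 0.91 among 11355 genes. In the treatment table they were Phtf1, Slco1c1, Numb, Krt10 and Tpm1, with r from 0.92 to 0.95 among 12028 genes. None of these 10 genes is in a microglia list, and in the table that did not choose them their r lay between -0.44 and 0.32. Of the members, Axl was the one most like Trem2 in both tables, with r of 0.33 and 0.58. Tyrobp, its adaptor, had r of -0.67 and -0.40. Trem2 itself had 12 to 79 counts per rat, so counting error enters every one of these values.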

How the data were processed

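The deposited estimated counts were made by the authors per gene symbol with RSEM 1.2.15, and their processing notes also name bcl2fastq 2.17, Bowtie2 2.1.0, edgeR and the build rn6, with no roles given. The RPM signal was scaled by the authors with TMM factors over the 10 rats of each table and was used as deposited for levels, permutation tests and correlations. Estimated counts, rounded to integers, were fitted for each table on its own in R 4.3.3 with edgeR 4.0.16 (TMM, quasi-likelihood F test), and p was adjusted over all 17168 genes (Benjamini-Hochberg). Calls needed a fold change of 1.5 or more and an adjusted p under 0.05. Confidence intervals of 95% were computed from the F statistic. The RPM of 9 members were also compared by exact two-sided permutation, 18 tests in all. At these group sizes a single member cannot by itself reach an adjusted p under 0.05 in these tests, even with groups that do not overlap. Alternatives were other scaling, filtering by expression, limma 3.58.1, DESeq2 1.42.0, the exact test of edgeR, a replicate block and leaving out each rat. The code was tried on simulated data.

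Members and lists were chosen with earlier results of these data known. The 12 lists (other plaque-associated microglia genes, TREM2 signalling, partners of the members, homeostatic microglia, border macrophages, blood cells, astrocytes, oligodendrocytes, neurons, choroid plexus, vessels and meninges, hippocampal neurons) held 173 genes, of which 162 were found, 3 of them by a synonym (Ankh, Ctsl1, Hba1). All members are named. From each list, genes were named among those with the 4 lowest p in a comparison or the most RPM. The 4 lowest p were taken over genes with a mean count of 10 or more, and not every such gene is described. The 5 genes most like Trem2 in each table are named too. Spi1, Trem1, Treml1 and Cd52 were added after values were seen. List medians use genes with a mean count of 10 or more. RefSeq entries on GRCr8 served for promoters only, because the counts rest on rn6.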

Additional observations from a re-analysis of the deposited data

Results flagged for a closer look

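A rat was set apart when the gap to its nearest neighbour was too large a share of the range of its group, a rule under which chance picks about 1 group in 20. Of 92 groups examined, 7 held such a rat, where 4.6 would be picked by chance. In the genotype comparison, the summed RPM of hippocampal neuron genes was 385.6 in TGNT replicate 3, with the nearest TGNT rat at 546.9. In the treatment comparison, TGTR replicate 5 had 1846.0 RPM of Apoe (nearest TGTR rat 2119.4) and 2028.3 RPM over the 9 members (nearest 2294.9), a sum that is mostly Apoe. The same rat had 42.9 RPM of border macrophage genes (nearest 21.8), 3960.2 RPM of choroid plexus genes (nearest 319.0) and 552.7 RPM of vessel and meninges genes (nearest 326.0). TGTR replicate 4 had 1290.4 RPM of blood cell genes (nearest 258.8). The causes were not tested, and every rat was kept in the fits.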

How the results depend on the processing

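In every setting 0 members were called in both comparisons. The edgeR exact test called 4 genes between genotypes and 4 with treatment, and DESeq2 called 3 with treatment.

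Between genotypes, the median log2 fold change of the 9 members was 0.097 in the fit reported, -0.034 with filterByExpr, which drops Cd68 and Cst7, and 0.038 with limma-trend on RPM plus 1. Leaving out each rat put it between -0.085 and 0.109. The same step moved Trem2 from -0.17 to 0.04, Apoe from -0.12 to 0.04, Cst7 from -0.16 to 0.29, Cd9 from -0.14 to 0.05 and Spp1 from -0.08 to 0.39, each changing sign. Cst7 rests on 0 to 3 counts, and its value in the main fit is also the median of the members.

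With treatment the median was -0.042, and leaving out each rat moved it from -0.075 to 0.02, Cd9 from 0.09 to 0.27, Cd68 from 0.08 to 0.63, Apoe from -0.08 to 0.02, Axl from -0.06 to 0.02 and App from -0.01 to 0.06. Axl was 0.02 with library size only. Without TGTR rats 5 and 6, chosen after seeing the data, Cd68 was -0.07. The cause was not tested.

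Rats with the same replicate number were not more alike, with 1 of 5 and 0 of 4 matching best, so no pairing was used. A replicate block, in which TGTR rats 5 and 6 have no partner, called 1 gene with treatment, Cd68 was -0.02, and the median of hippocampal neuron genes was 0.007.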

Other observations

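TGNT rats were sequenced for both tables, as 5 rats in one and 4 others in the other, and their levels can be set side by side only as description because the tables were normalized separately. Trem2 ranged from 1.81 to 2.79 RPM in the genotype table and from 4.96 to 6.77 RPM in the treatment table, a ratio of means of 2.56. Tyrobp ranged from 1.9 to 3.02 RPM and from 3.77 to 4.42 RPM (ratio 1.65), Apoe from 908.6 to 1341.2 RPM and from 2034.1 to 2455.1 RPM (ratio 1.97), and Axl from 23.8 to 36 RPM and from 39.8 to 47.3 RPM (ratio 1.44). In these 4 of the 7 members with enough counts every TGNT rat of the treatment table lay above every TGNT rat of the genotype table, and 0 members lay below. The other members overlapped. Their ratios of means were 0.449 for Spp1, 0.653 for Cd68, 0.825 for Cd9, 0.858 for Lpl and 1.87 for Cst7. Among 12043 genes, 28.1% lay above and 25.7% below without overlap, with a median ratio of 1.03. The TGNT libraries also differed in 7SL, with 2.02 to 2.39% of counts in the genotype table and 5.11 to 6.36% in the treatment table, and in Rn45s, with 0.54 to 2.05% and 2.87 to 4.38%. The part of these in the levels was not tested.

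Other relations of members with lists had a low p in one table before adjustment and failed it after, among them the 3 of the genotype table that follow. In the genotype table Cd9 and the neuronal genes had Pearson's r = -0.91 (exact permutation p = 0.00556, adjusted p = 0.206 over 168 relations), Spearman's rho = -0.87 (exact permutation p = 0.00535) and r = -0.78 without the 2 farthest rats. Lpl and the border macrophage genes had r = 0.85 (exact permutation p = 0.0124, adjusted p = 0.346), rho = 0.92 (exact permutation p = 0.00104) and r = 0.73 without the 2 farthest rats, and Spp1 and the partners of the members r = 0.83 (exact permutation p = 0.00556, adjusted p = 0.206), rho = 0.90 (exact permutation p = 0.00201) and r = 0.74. In the treatment table r was 0.21, 0.14 and 0.12 for these relations (exact permutation p = 0.533, 0.684 and 0.743, adjusted p = 0.845, 0.884 and 0.925), with rho of 0.10, 0.54 and 0.49 (exact permutation p = 0.793, 0.126 and 0.141). Mertk had the lowest p of the homeostatic list in both tables, with log2 fold changes of -0.26 between genotypes and -0.19 with treatment, and an adjusted p of 1 and 0.964 by edgeR.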
